A study of Mus musculus with 49 samples.

Results

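DNA replication and S-phase genes are described here across 49 libraries of mouse hepatocytes, cells derived from them, and intestinal organoids. The 46 genes were chosen by name: a row of the deposited count table was taken where its Ensembl identifier carries the symbol of a listed gene, and all 46 were found among 46078 identifiers. The rule itself uses names and no measured value. In each cell cycle the MCM2-7 ring is loaded onto origins by Cdc6 and Cdt1, is turned into the working helicase with Cdc45 and the GINS complex, and is followed by the primase and polymerases, which are held on DNA by the sliding clamp PCNA. Geminin (Gmnn) blocks a further round of loading, and cyclin E and E2F1 drive the genes of this programme on. Adult hepatocytes are largely quiescent in the liver and keep the ability to enter the cycle, for which isolation and plating with EGF is a textbook trigger.

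All cells came from wild-type C57BL/6J mice. Hepatocytes of 10-week-old animals were measured when freshly isolated (FH, 3 libraries) and after 3 h, 1, 2, 4, 7 and 14 days of monolayer culture with EGF (3 each). A separate pair of 7-day cultures was exposed to 0.3 µM verteporfin, an inhibitor of Yap-dependent transcription, or to DMSO (2 each). The dedifferentiated hepatocytes that keep growing in monolayer (dediHeps, 5), their aggregates in ultra-low attachment plates (3), and spherical organoids (SOs) made from them in Matrigel (3) come in part from the same cultures: 3 dediHep libraries have an aggregate and 3 have SOs of their own culture. Budding organoids (BOs) came from dediHeps carrying a retroviral Cdx2 transgene (3), so that the inserted factor is part of every comparison with them. In the paper SOs formed in medium with Wnt3a and the Wnt agonist CHIR99021, and both were later removed to obtain BOs. Transgene and medium may thus differ together between dediHep-derived BOs and SOs. CLiPs (3) are hepatocyte-derived progenitors that were induced with Y-27632, A-83-01 and CHIR99021. Fetal intestinal progenitor cells (FIPCs) of E13.5 embryos gave SOs (3), and crypts with intestinal stem cells (ISCs) of 10-week-old mice gave BOs (4). The labels do not tie each library to an animal, so p-values measure the spread between these libraries. Descriptions of the 3 h libraries carry other numbers than those of FH and the later time points. Whether they come from the same preparations is not stated.

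CEL-seq2 counts transcripts through a molecular identifier at their 3′ end, and transcripts of a gene that share an identifier are counted as 1. Library totals ran from 861047 to 3872936 counts, so 3 counts in a library, the level under which 0 cannot be told from a low level, stand for 0.630 to 4.10 CPM (counts relative to the library total, scaled with TMM factors over all libraries). Summed levels of 8 hepatocyte markers were 19000 to 24390 CPM in FH and 103 to 135 CPM in dediHep-derived SOs, the lowest of the 16 groups, although the labels name both as hepatocytes. Markers of Kupffer cells (6 genes, 74.4 to 260 CPM), liver endothelium (5 genes, 170 to 291 CPM) and stellate cells and fibroblasts (6 genes, 67.1 to 188 CPM) were present in FH. At 3 h the same sums were 1.27 to 4.65, 52.3 to 114 and 23.2 to 29.3 CPM, and leukocyte markers (6 genes) stayed at or below 9.44 CPM in every library. Among the dediHeps, replicate 3 stood apart with a summed level of the 46 genes of 3792 CPM against 1135 to 1827 CPM in the other 4. In bulk RNA, a smaller share of cells in S phase and less RNA in each such cell cannot be told apart.

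Promoters of 35 members were in RefSeq (GRCm38.p6), each taken from 250 bases before to 50 bases after the start site. A strict E2F motif (TTTCCCGC, TTTCGCGC, TTTGCCGC or TTTGGCGC, on either strand) was found for 13 of these 35 genes (37.1%), against 704 of 27025 genes with a promoter in the same table (2.61%). The CHR motif of mitotic genes (TTTGAA or TTCGAA, either strand) was found for 6 of 35 (17.1%) against 21.7% of all genes. The 8 windows below belong to members whose levels the results turn on. They are written 5′ to 3′ on the strand of the gene, capitals mark the E2F match, and the first match listed is shown where a gene has several.
Mcm3 (chr1:20820270-20820309, minus strand): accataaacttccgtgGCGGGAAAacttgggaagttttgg
Mcm5 (chr8:75109340-75109379, plus strand): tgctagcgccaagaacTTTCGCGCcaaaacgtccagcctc
Mcm6 (chr1:128359792-128359831, minus strand): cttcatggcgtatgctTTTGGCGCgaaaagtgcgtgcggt
Mcm7 (chr5:138172025-138172064, minus strand): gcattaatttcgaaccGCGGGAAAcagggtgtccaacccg
Cdc6 (chr11:98907997-98908036, plus strand): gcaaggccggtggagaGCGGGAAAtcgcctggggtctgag
Cdt1 (chr8:122568031-122568064, plus strand): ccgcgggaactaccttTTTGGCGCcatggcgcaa
Clspn (chr4:126556985-126557024, plus strand): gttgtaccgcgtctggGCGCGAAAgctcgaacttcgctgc
Uhrf1 (chr17:56304112-56304151, plus strand): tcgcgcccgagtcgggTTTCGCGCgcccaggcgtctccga
Of the 12 tested genes with a match, 8 rose between day 1 and day 2 of culture, with a median log2 fold change of 2.69. The 22 tested genes with a promoter and no match had 15 that rose and a median of 2.39. A match is a string of letters in this window, not a shown binding site. The remaining 11 members without an entry are Ccne2, Exo1, Pole, Tipin, Gins1, Mcm4, Dscc1, Rfc2, Gins4, Gmnn and Gins2.

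The replication genes rose between day 1 and day 2 of culture. A gene was called when its Benjamini-Hochberg adjusted p in edgeR's quasi-likelihood test was under 0.1 and its absolute log2 fold change was over 2. Log2 fold changes are given ± SE, and values by library stand in the order of the replicate numbers. Of the 44 members that passed the filter on low counts, 30 rose from day 1 to day 2 and 0 fell, against 2.52% and 1.86% of all 12443 genes tested. Their median log2 fold change was 2.55, and that of all genes was 0.02. The 2 members not tested, Dscc1 (clamp loading) and Cdca7 (a chromatin factor of S phase), had group means of 4.90 and 3.53 CPM at day 2. The mitosis genes moved in the same interval: all 11 tested of 12 rose, and their summed level went from 20.8, 29.2 and 16.3 CPM to 494, 863 and 1694 CPM. Leaving out 1 library at a time left 24 to 31 members called. The calls of Gins1, Rrm2 and E2f8 were each lost in 3 of these 6 fits, and those of Mcm6, Tyms and Pola2 in 2.

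**Figure D1:**
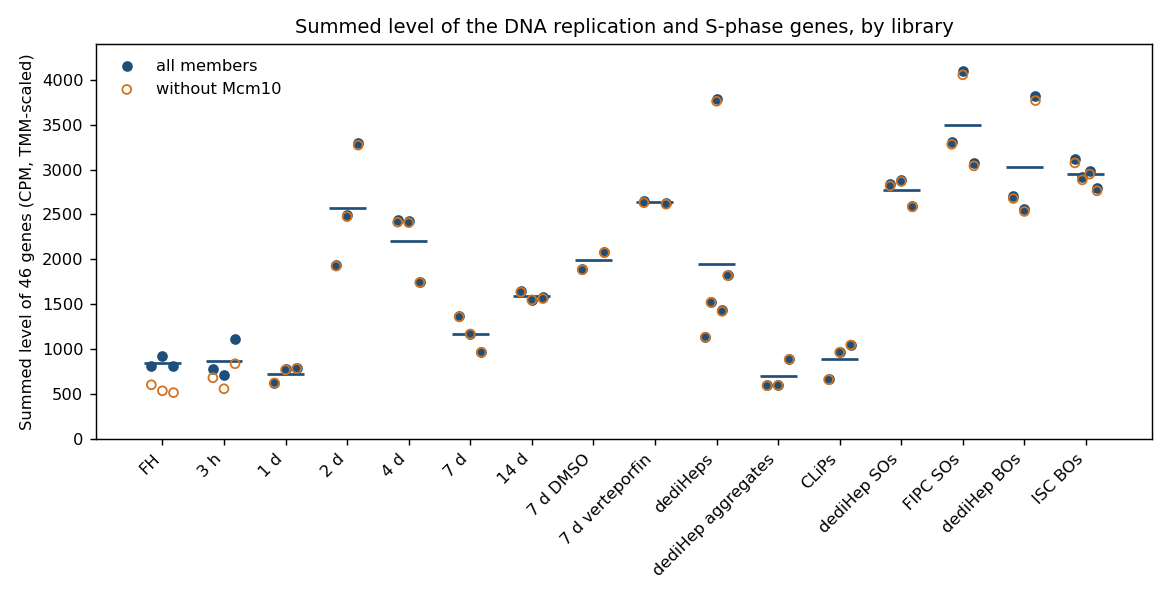
Summed level of the 46 genes (y axis, TMM-scaled CPM) in each library of the 16 groups (x axis); filled points are libraries, open points the same sum without Mcm10, bars the group means of the filled points. The sum stays between 623 and 1114 CPM in FH and at 3 h and 1 day and is 1940 to 3291 CPM at 2 days, and the aggregates (595 to 891 CPM) lie below all 5 dediHep libraries.

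Summed over all members, the level was 811, 916 and 809.6 CPM in FH, 776, 711 and 1114 CPM at 3 h and 623, 771 and 784 CPM at day 1. It was 1940, 2496 and 3291 CPM at day 2, 2435, 2427 and 1749 CPM at day 4, 1366, 1172 and 967 CPM at day 7 and 1649, 1551 and 1574 CPM at day 14. All libraries from day 2 on lay above those of FH and day 1. Whether the sum fell from FH to day 1 depended on the scale: it was 846 ± 61.4 (SD, n = 3) and 726 ± 89.4 CPM with TMM factors, and 539 ± 21.4 and 689 ± 55.5 CPM of the plain library total. Without Mcm10 the order turned on the first scale too, with sums of 549 ± 45.7 and 724 ± 89.2 CPM. The highest group mean of the time course fell at day 2 for 25 members, at day 4 for 13, at day 14 for 5, at 3 h for 2 and in FH for 1.

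**Figure D2:**
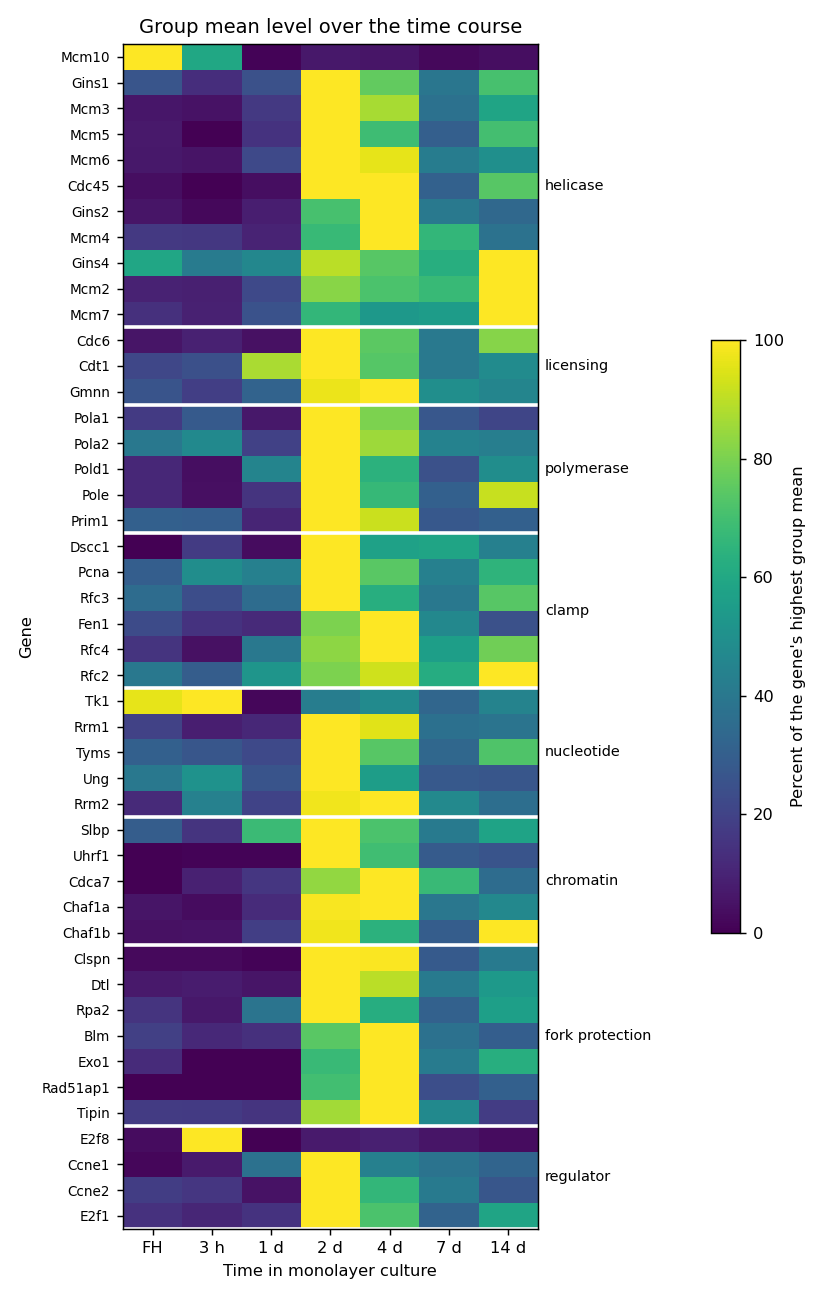
Group means of the 46 genes (rows, grouped by role) over the time course (columns), as percent of each gene's highest group mean. Most rows are brightest at 2 or 4 days, Mcm10 is brightest in FH, E2f8 and Tk1 at 3 h.

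Of 11 helicase genes, 8 rose between day 1 and day 2. Mcm2, a ring subunit, measured 5.9, 2.74 and 3.1 CPM in FH, 5.1, 4.41 and 1.16 at 3 h, 7.37, 11.6 and 8.14 at day 1 and 25.2, 37.7 and 38 at day 2. Its later values were 33.8, 35.1 and 19.2 CPM at day 4, 40.1, 14.5 and 28.1 at day 7 and 61.1, 18.2 and 43.6 at day 14. The day-2 libraries all exceeded those of day 1, and the step (log2 fold change 1.90 ± 0.464, adjusted p = 0.0127) was just under the fold threshold. Mcm3 measured 3.54, 1.37 and 1.03 CPM in FH, 2.55, 2.21 and 0 at 3 h, 5.64, 5.55 and 5.09 at day 1 and 26.9, 27.2 and 44.8 at day 2. It then measured 35, 35.5 and 15.4 CPM at day 4, 18, 7.98 and 11.1 at day 7 and 23.6, 18.2 and 16.1 at day 14. No day-2 library overlapped day 1 (log2 fold change 2.60 ± 0.464, adjusted p = 8.30e-04).

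Mcm4 measured 11.8, 0 and 4.13 CPM in FH, 5.1, 2.21 and 8.13 at 3 h, 2.17, 4.03 and 3.56 at day 1 and 17.4, 16.7 and 30.7 at day 2. Its later values were 21.2, 59.2 and 15.9 CPM at day 4, 13, 39.4 and 11.4 at day 7 and 11.1, 8.21 and 17.2 at day 14. It rose from day 1 to day 2 (log2 fold change 2.72 ± 0.70, adjusted p = 0.0185), while the FH libraries were spread from 0 to 11.8 CPM. Mcm5 measured 3.54, 4.1 and 3.1 CPM in FH, 0, 0 and 0 at 3 h, 7.37, 6.05 and 10.2 at day 1 and 44.2, 69.5 and 47.2 at day 2. At day 4 it was 45.6, 41.2 and 24.1 CPM, at day 7 33.5, 6.48 and 8.48 and at day 14 40.7, 48.1 and 24.1. All 3 libraries at 3 h held 0 counts against 9 in FH, which is at least 3.01-fold lower with 3 counts over the group as the floor, and Mcm5 was called lower there (adjusted p = 0.0376). Day 2 against day 1 gave log2 fold change 2.78 ± 0.509, adjusted p = 0.00134.

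Mcm6 measured 13, 4.1 and 3.1 CPM in FH, 3.82, 3.31 and 9.29 at 3 h, 15.2, 30.8 and 22.4 at day 1 and 63.2, 134 and 113 at day 2. From day 4 it measured 78.5, 148 and 71.9, then 38.4, 54.4 and 37.9 at day 7 and 49.99, 39.9 and 64.2 CPM at day 14. Day 1 already exceeded FH in all 3 libraries (log2 fold change 1.67 ± 0.526, adjusted p = 0.018), below the fold threshold, and day 2 rose further (log2 fold change 2.19 ± 0.435, adjusted p = 0.0022). Mcm7 measured 18.9, 27.4 and 37.2 CPM in FH, 20.4, 21 and 15.1 at 3 h, 32.5, 66 and 55.5 at day 1 and 94.6, 171 and 138 at day 2. Its later values were 179, 77.6 and 68.6 CPM at day 4, 209, 27.9 and 99.5 at day 7 and 247, 110.2 and 251 at day 14. The 3 libraries of day 7 lie far apart, and the step from day 1 to day 2 was not called (log2 fold change 1.40 ± 0.524, adjusted p = 0.151), although day 2 exceeded FH (log2 fold change 2.18 ± 0.561, adjusted p = 0.00366). Mcm7 overlaps Cops6 and Ap4m1 on the other strand.

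Cdc45 and the GINS subunits complete the working helicase. Cdc45 had 1 count in FH and 64 at day 2 over all libraries, a ratio of 23.1 with a 95% counting interval of 4.00 to 927. Among the GINS subunits, Gins2 (log2 fold change 3.05 ± 0.547, adjusted p = 8.41e-04) and Gins1 (log2 fold change 2.01 ± 0.506, adjusted p = 0.0157) rose. The Gins1 call was lost in 3 of 6 fits with a library left out. Gins4, which was already present in FH at 40.1, 107 and 98.1 CPM, measured 69.4, 52.4 and 69.7 CPM at day 1 and 150.4, 109 and 112 CPM at day 2 and was not called (log2 fold change 0.97 ± 0.419, adjusted p = 0.253).

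Of 3 licensing factors, Cdc6 was the 1 called between day 1 and day 2. Cdt1, which loads the ring with Cdc6, measured 18.9, 15.1 and 6.2 CPM in FH, 12.7, 15.4 and 17.4 at 3 h, 38.2, 93.3 and 31.6 at day 1 and 38.8, 76.5 and 71.6 at day 2. Later it measured 46.8, 50.5 and 40.6 CPM at day 4, 27.8, 17.9 and 30.02 at day 7 and 52.5, 17 and 20.6 at day 14. Every day-1 library lay above FH and 3 h (log2 fold change 1.95 ± 0.502, adjusted p = 0.00444, just under the fold threshold), and day 2 overlapped day 1 (log2 fold change 0.20 ± 0.438, adjusted p = 0.909). Cdc6 had 5 counts over the day-1 libraries and 114 over those of day 2 (log2 fold change 4.27 ± 0.805, adjusted p = 0.00134). Gmnn measured 21.2, 20.5 and 9.29 CPM in FH, 7.64, 14.3 and 15.1 at 3 h, 17.8, 26.2 and 18.8 at day 1 and 46.7, 74.5 and 71.1 at day 2. Then it was 69.2, 64.5 and 64.2 CPM at day 4, 29.9, 37.4 and 30.4 at day 7 and 34.6, 23.4 and 32.1 at day 14. Its step at day 2 passed the p threshold but not the fold (log2 fold change 1.62 ± 0.328, adjusted p = 0.00262).

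Of 4 regulators tested, 3 rose between day 1 and day 2. Ccne1, the cyclin E that partners Cdk2 at the G1/S transition, measured 0, 1.37 and 2.06 CPM in FH, 0, 9.93 and 4.64 at 3 h, 18.2, 30.8 and 25.9 at day 1 and 67.3, 52.8 and 80.3 at day 2. It was the 1 member of 44 called higher at day 1 than in FH (154 against 3 counts, a 20.9-fold higher level with a 95% counting interval of 7.02 to 102, adjusted p = 3.91e-04), against 6.57% of all genes. After day 2 it measured 34.2, 32.9 and 20.3 CPM at day 4, 48.9, 12 and 15.3 at day 7 and 26.1, 19.9 and 18.4 at day 14, all above FH. Ccne2, its paralog, measured 1.18, 4.1 and 0 CPM in FH, 0, 0 and 4.64 at 3 h, 0.434, 0.504 and 0.509 at day 1 and 6.61, 11.3 and 11.2 at day 2. Later levels were 5.7, 9.21 and 4.39 CPM at day 4, 1.06, 8.48 and 2.28 at day 7 and 1.43, 1.76 and 4.59 at day 14. Unlike Ccne1 it stood at 3 counts over the day-1 libraries and rose only in the next step (68 against 3 counts, a 20.1-fold higher level with a 95% counting interval of 6.59 to 99.9, adjusted p = 0.00842); the difference between the paralogs was not tested. E2f1, the transcription factor that activates replication genes, measured 15.3, 21.9 and 18.6 CPM in FH, 17.8, 14.3 and 9.29 at 3 h, 19.9, 18.6 and 18.3 at day 1 and 102, 166 and 122 at day 2. It measured 128, 67.5 and 84 CPM at day 4, 65.1, 24.4 and 34.9 at day 7 and 53.9, 113 and 60.8 at day 14. Day 1 was within the range of FH, and day 2 lay above it in all libraries (log2 fold change 2.79 ± 0.391, adjusted p = 7.31e-05).

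Between day 1 and day 2, 1 of 5 genes in the clamp group and 4 of 5 in the nucleotide group rose. The clamp group includes the flap endonuclease Fen1, and the nucleotide group the uracil-DNA glycosylase Ung. Pcna, the sliding clamp, measured 64.9, 50.6 and 48.5 CPM in FH, 112, 54.1 and 103 at 3 h, 71.6, 79.2 and 89.6 at day 1 and 157, 139 and 255 at day 2. Its later levels were 150.5, 141 and 118 CPM at day 4, 66.2, 99.7 and 73.7 at day 7 and 109.6, 136 and 111 at day 14. It was never silent, and its step at day 2 passed the p threshold but not the fold (log2 fold change 1.21 ± 0.305, adjusted p = 0.0161). Tyms, which makes thymidylate, measured 11.8, 10.9 and 9.29 CPM in FH, 5.1, 7.72 and 15.1 at 3 h, 4.34, 7.56 and 11.2 at day 1 and 16.9, 33 and 54.5 at day 2. At day 4 it measured 27.3, 28.5 and 21.4 CPM, at day 7 14.8, 12.5 and 7.5 and at day 14 33.9, 24.6 and 17.2. The rise from day 1 was called (log2 fold change 2.19 ± 0.458, adjusted p = 0.00357). Rrm2, the regulated subunit of ribonucleotide reductase, measured 114, 5.47 and 9.29 CPM in FH, 215, 92.7 and 165 at 3 h, 40.8, 109.9 and 65.6 at day 1 and 195, 235 and 626 at day 2. Then it was 257, 509.7 and 309.5 CPM at day 4, 111, 281 and 114 at day 7 and 112, 112 and 165 at day 14. FH replicate 1 held 97 of the 110 Rrm2 counts of FH, and the call at day 2 against day 1 (log2 fold change 2.29 ± 0.706, adjusted p = 0.0598) was lost with all 49 libraries in the fit (adjusted p = 0.121).

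Of the members with other roles, polymerase genes (Pola1, Pola2, Prim1 and Pole) rose in 4 of 5 between day 1 and day 2, with log2 fold changes of 2.33 to 3.97. Pold1, the catalytic subunit of polymerase delta, was the exception: it was called higher at day 1 than at 3 h (59 against 2 counts, a 12-fold higher level with a 95% counting interval of 3.19 to 102, adjusted p = 5.23e-04) and not in the next step. Gm14780, a processed pseudogene, overlaps Pola1 by 2737 bases on the other strand. It had group means of 15.5 CPM at day 1 and 40.4 CPM at day 2, and its part in the Pola1 values was not tested. In all, 23 of the 46 members overlap another annotated gene. Of 5 genes tested in the clamp group, Fen1 was the 1 called (log2 fold change 2.73 ± 0.731, adjusted p = 0.0244), and Pcna, Rfc2, Rfc3 and Rfc4 were not. Chaf1a and Chaf1b of chromatin assembly factor 1 and Uhrf1, which guides maintenance methylation, rose. Uhrf1 had 0 counts in FH and 263 at day 2, at least 31.7-fold higher. Slbp, the histone stem-loop binding protein, was called at day 1 against 3 h (log2 fold change 2.11 ± 0.41, adjusted p = 3.13e-04) with Rfc4, Rpa2, Pold1, Mcm5 and Ccne1, which makes 6 of 44 higher; with the 4 lower, 10 of 44 were called, against 24.2% of all genes in either direction. Of 7 fork protection genes, 6 rose at day 2, among them Rad51ap1, which had 0 counts through day 1, and Clspn (238 against 2 counts, a 106-fold higher level with a 95% counting interval of 28.9 to 877, adjusted p = 3.35e-06).

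**Figure D3:**
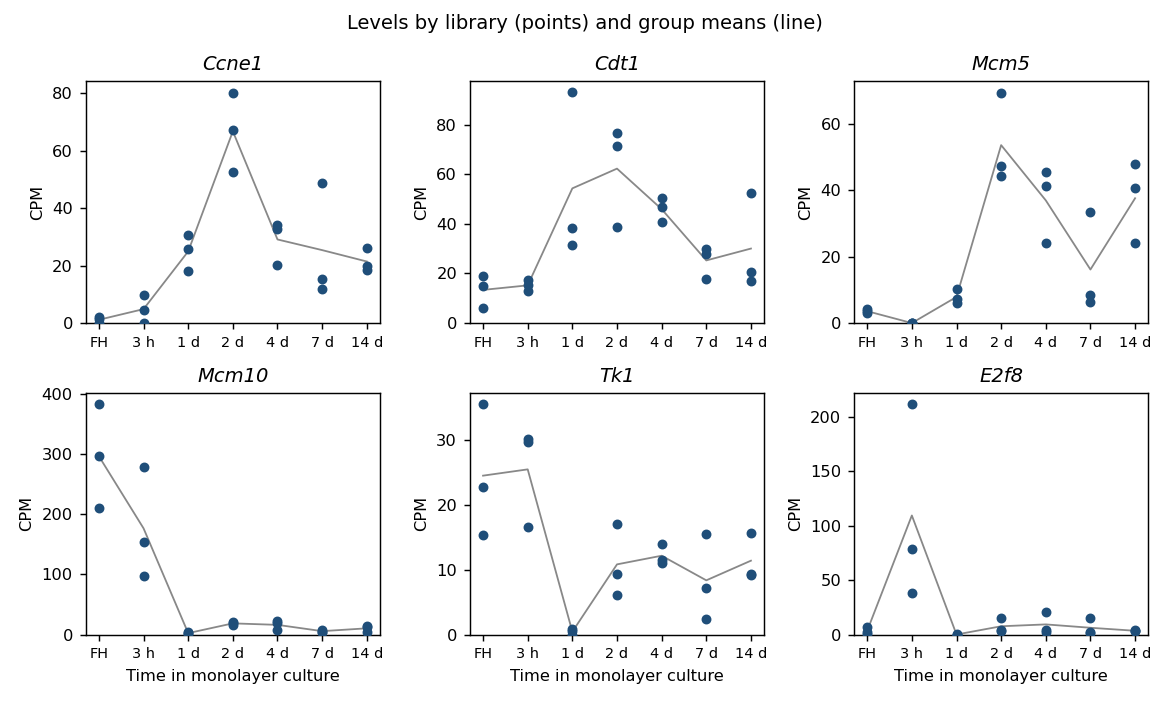
CPM (y axis) of 6 members in the 3 libraries of each time point (points) with the group mean (line). Ccne1, Cdt1 and Mcm5 are above FH in all 3 libraries at 1 day and Mcm5 is higher again at 2 days, and Mcm10, Tk1 and E2f8 are highest in FH or at 3 h and near 0 at 1 day.

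Mcm10, Tk1 and E2f8 left the common course. Mcm10, which helps to start the helicase, measured 210.0, 383 and 296 CPM in FH, 96.8, 154 and 279 at 3 h, 2.17, 4.03 and 1.53 at day 1 and 16.1, 21.4 and 19 at day 2. Later it measured 22, 19.3 and 7.68 CPM at day 4, 8.1, 4.99 and 4.57 at day 7 and 15, 4.1 and 12.6 at day 14. It fell from FH to day 1 (log2 fold change -6.91 ± 0.593, adjusted p = 1.48e-08) and then rose with the others (log2 fold change 2.85 ± 0.557, adjusted p = 0.0019), to a level far below FH (log2 fold change -4.06 ± 0.49, adjusted p = 8.22e-07). No other annotated gene lies within 2000 bases of Mcm10 in GENCODE M21. At 3 h, with Mcm10 at 96.8 to 279 CPM, marker sums were 1.27 to 4.65 CPM for Kupffer cells, 52.3 to 114 CPM for endothelium and 23.2 to 29.3 CPM for stellate cells and fibroblasts, and their part in the Mcm10 values was not tested.

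Tk1, the thymidine kinase of the salvage pathway, measured 15.3, 35.6 and 22.7 CPM in FH, 16.6, 29.8 and 30.2 at 3 h, 0.867, 0 and 0.509 at day 1 and 6.2, 9.32 and 17 at day 2. From day 4 it measured 11, 14 and 11.5, 15.5, 2.49 and 7.18 at day 7 and 15.7, 9.38 and 9.18 CPM at day 14. It went from 61 counts in FH to 3 at day 1, a ratio of 49.9 (95% counting interval 16.3 to 248.8), and rose again at day 2 (74 against 3 counts, a 21.9-fold higher level with a 95% counting interval of 7.2 to 108, adjusted p = 6.93e-04). Afmid, which overlaps Tk1 by 169 bases on the other strand, had group means of 10.6 CPM in FH and 0.509 CPM at day 1, and its part in the Tk1 values was not tested.

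E2f8, a repressor of the E2F family, measured 7.08, 2.74 and 1.03 CPM in FH, 38.2, 78.3 and 211 at 3 h, 0, 0 and 0.509 at day 1 and 3.31, 4.27 and 15.6 at day 2. It was 4.48, 21.1 and 2.74 CPM at day 4, 2.11, 15 and 1.96 at day 7 and 3.21, 4.1 and 3.44 at day 14. The 3 h libraries were far apart from one another and all exceeded FH (log2 fold change 4.91 ± 0.977, adjusted p = 0.00277), which made E2f8 the 1 member of 44 called higher at 3 h, against 3.06% of all genes, as Mcm5 was the 1 called lower, against 3.85%. By day 1 a single E2f8 count was left (1 against 283 counts, a 694-fold lower level with a 95% counting interval of 124 to 27490, adjusted p = 8.37e-06). Gm2788, on the other strand and overlapping E2f8, had means of 56.6 CPM in FH, 34.6 CPM at 3 h, when E2f8 was higher than in FH, and 0.482 CPM at day 1, and its part was not tested. At day 1, Mcm10, Tk1, E2f8 and Exo1 were the 4 of 44 called lower than FH, against 10.9% of all genes. The Exo1 call rested on 2 counts in FH and 0 at day 1 and was lost in DESeq2. Without FH replicate 1 there were 5 higher and 3 lower at day 1, and without day-1 replicate 2 there were 3 and 2. Against 3 h the 4 lower at day 1 were Mcm10, Tk1, E2f8 and Pola1.

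Between day 2 and day 4, 0 of 44 members were called in either direction (background 1.08% higher and 1.27% lower), with 2 at an unadjusted p under 0.05. From day 4 to day 7, 43 of 44 estimates were negative with a median log2 fold change of -1.10. Rad51ap1 was the 1 member called lower (log2 fold change -2.02 ± 0.53, adjusted p = 0.0636), against 0.932% of all genes, and 0 were higher, against 0.796%. Replicate numbers paired the libraries of these 2 days, and with the replicate block the call was lost (log2 fold change -1.99, adjusted p = 0.0747). Between day 7 and day 14, 0 members were called (background 0.707% higher and 1.04% lower). In DESeq2 the counts for these 3 steps were 0, 1 and 0, and members at an unadjusted p under 0.05 numbered 23 from day 4 to day 7 and 9 from day 7 to day 14. Single libraries moved these counts: the call from day 4 to day 7 became 0 without day-4 replicate 1 or 2 or day-7 replicate 3 and 4 without day-7 replicate 2, and from day 7 to day 14 there were 3 without day-7 replicate 1.

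Against FH, 27 of 44 members were higher at day 2 (9.21% of all genes), 26 at day 4 (11.4%), 14 at day 7 (13.2%) and 20 at day 14 (14.1%). These 4 comparisons share the same FH libraries. Mcm10 was the 1 member called lower at each of these times, against 12.1%, 12.4%, 12.8% and 15.3% of all genes. The 14 members called higher at day 7 were called higher at all 4 times. Over the time course, 26 members were first called higher than FH at day 2, and 15 were never called higher. Those 15 include Dscc1 and Cdca7, which were not tested. The shares of all genes with these patterns were not counted, so these counts have no background. At day 14, 7 of 11 helicase genes were called higher than FH and 0 of 5 genes of the nucleotide group, beside 14.1% of all genes. The median log2 fold change of the nucleotide group was 0.97. Tyms (1.24, adjusted p = 0.0390), Rrm1 (0.97, adjusted p = 0.0692) and Rrm2 (1.59, adjusted p = 0.0736) passed the p threshold but not the fold. The difference between roles was not tested. Libraries of day 7 went different ways for different members: replicate 2 was the lowest of the 3 for 20 members and the highest for 17. It had the lowest Mcm7 (27.9 CPM) and the highest Rrm2 (281 CPM).

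Replication genes outside the 46 were counted in a list of 62. Between day 1 and day 2, 15 of 57 tested rose and 0 fell, against 2.52% and 1.86% of all genes, with a median log2 fold change of 1.30. Among those with the smallest p were Ccna2, the S-phase cyclin (1.76 to 76.6 CPM, log2 fold change 5.32), and Asf1b, a histone chaperone (4.65 to 52.0 CPM, 3.47). At day 1 against FH, 4 of the 57 were called higher, close to the 6.57% of all genes, and 1 lower, against 10.9%. Among them Pold4, a small subunit of polymerase delta, rose from 9.60 to 99.2 CPM, E2f3 from 40.0 to 171 CPM, and Shmt1, a folate enzyme that is abundant in liver, fell from 570 to 87.5 CPM.

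Some of the replication genes fell from dediHeps to aggregates. DediHeps against FH had 18 of 39 tested members higher (13.1% of all genes) and Mcm10 as the 1 lower (12.6%). From dediHeps to aggregates, 13 of 40 fell and 0 rose, against 5.11% lower and 4.39% higher of all genes, with a median log2 fold change of -1.74. At any fold, 22 of 40 were lower at an adjusted p under 0.1, against 12.2% of all genes. All 11 tested mitosis genes fell as well, from summed levels of 482 to 2824 CPM to 12.9, 50.8 and 133 CPM. Hepatocyte markers summed to 858 to 4311 CPM in the dediHeps and 7606 to 11950 CPM in the aggregates.

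Within each culture the sum was lower in the aggregate. It was 1135 CPM in dediHep replicate 1 and 595 CPM in its aggregate (52.5%), 1526 and 596 CPM in the second culture (39.0%), and 1433 and 891 CPM in the third (62.2%). Of the 46 members, 32 were lower in the aggregate in all 3 cultures and 1, the clamp loader subunit Rfc2, named after its values were seen, was higher in all 3. The share of all genes that moved alike in all 3 cultures was not counted, so these counts have no background. The dediHep replicate that stood apart has no aggregate, and without it 10 of 38 members were called lower. Leaving out aggregate replicates 1 or 2 left 6 and 8. With the culture as a block, 9 of the 13 stayed called, while Pola2 (adjusted p = 0.126) and, by fold, Pole, Rrm1 and Tipin were lost.

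**Figure D4:**
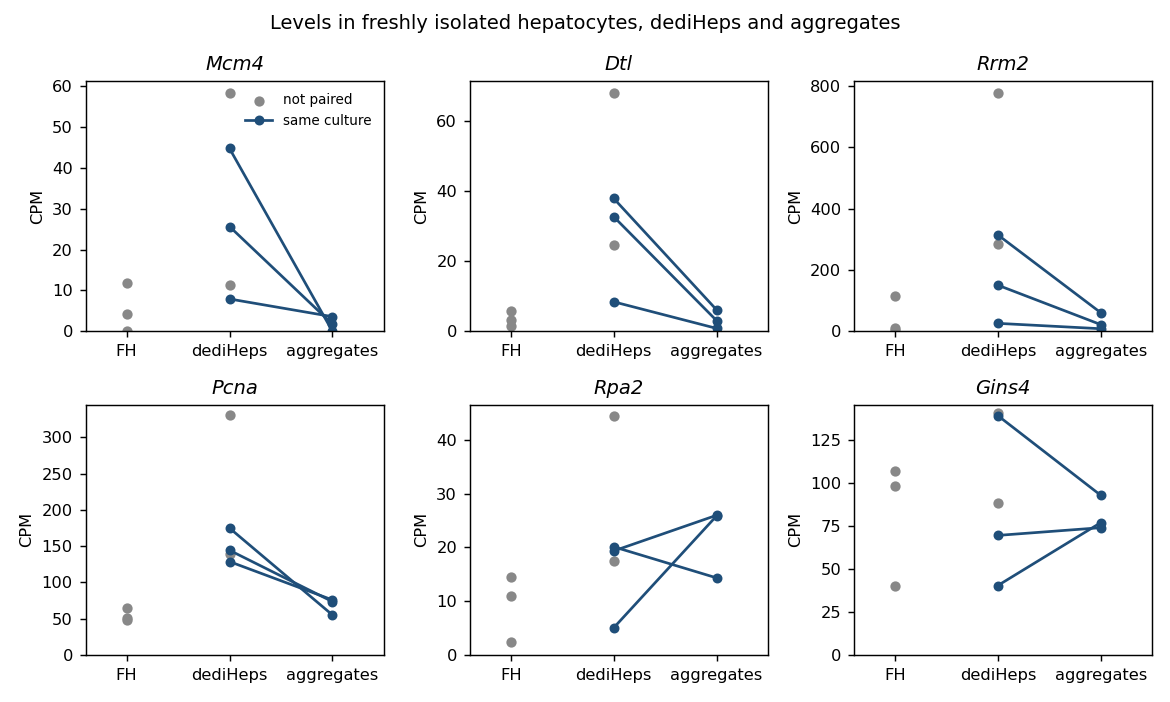
CPM (y axis) of 6 members in FH, dediHeps and aggregates (x axis), with lines joining the dediHep and aggregate libraries of the same culture. Mcm4, Dtl, Rrm2 and Pcna drop in each of the 3 cultures, and Rpa2 and Gins4 go up in some cultures and down in others.

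Of the helicase genes, Mcm3, Mcm4 and Gins2 fell. Mcm4 measured 44.7, 25.6, 58.3, 7.89 and 11.4 CPM in dediHeps and 0, 1.74 and 3.56 CPM in aggregates, with no overlap (log2 fold change -3.93 ± 0.92, adjusted p = 0.0203). Mcm3 measured 14, 16.6, 50.8, 18.9 and 21.3 CPM and 0.808, 2.17 and 9.67 CPM (log2 fold change -2.48 ± 0.734, adjusted p = 0.0465), a call that was lost without aggregate replicate 1 (adjusted p = 0.143) or 2 (0.156). Mcm2 measured 34.7, 38.2, 75.2, 50.9 and 44 CPM and 5.66, 12.2 and 19.4 CPM, again without overlap and just short of the fold (log2 fold change -1.95 ± 0.455, adjusted p = 0.0198). For the other ring subunits the order was less clear. Mcm5 measured 6.15, 21.1, 78, 34 and 32.7 CPM in dediHeps and 0, 3.91 and 17.3 CPM in aggregates (adjusted p = 0.134). Mcm6 measured 43.1, 64.8, 172, 62.8 and 54.9 CPM and 20.2, 29.1 and 41.8 CPM (adjusted p = 0.0854, log2 fold change -1.39), close to each other without overlap. Mcm7 measured 47, 178, 303, 135 and 209 CPM and 42.8, 72.1 and 126 CPM (adjusted p = 0.178), and these groups overlap.

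Rrm2 measured 314, 150.3, 778, 25.7 and 286 CPM in dediHeps and 60.6, 21.7 and 8.15 CPM in aggregates (log2 fold change -3.40 ± 1.01, adjusted p = 0.0469), a call lost without aggregate replicate 2 or 3 (adjusted p = 0.148 and 0.159). The 2 groups overlap, since dediHep replicate 4 was at 25.7 CPM, while each aggregate was below the dediHeps of its own culture. Pcna measured 144, 175, 331, 129 and 139.7 CPM and 73.5, 55.2 and 75.9 CPM, without overlap and under the fold threshold (log2 fold change -1.44 ± 0.385, adjusted p = 0.0337). Tyms measured 22.4, 24.1, 37.5, 22.5 and 39.8 CPM and 8.08, 3.91 and 14.8 CPM (log2 fold change -1.71 ± 0.481, adjusted p = 0.0396). Both stayed below the lowest dediHep library in every aggregate.

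Gmnn measured 35.2, 53.3, 117, 40.3 and 61.5 CPM in dediHeps and 24.2, 16.9 and 28 CPM in aggregates (log2 fold change -1.42 ± 0.454, adjusted p = 0.0585). Cdt1 measured 38.6, 88, 214, 103 and 59.7 CPM and 30.7, 17.4 and 50.9 CPM, which overlap (log2 fold change -1.62 ± 0.58, adjusted p = 0.083). Cdc6, in contrast, had the most negative estimate of the tested members (2 against 96 counts, a 22.5-fold lower level with a 95% counting interval of 6.07 to 189, adjusted p = 0.0189). Ccne1 measured 4.47, 11.6, 10.6, 15.4 and 11.8 CPM and 1.62, 4.34 and 3.56 CPM (log2 fold change -1.70 ± 0.525, adjusted p = 0.0536). E2f1 measured 12.9, 48.2, 58.9, 44.6 and 38.8 CPM and 16.2, 30.4 and 28.5 CPM, and was not called (adjusted p = 0.316). Ccne2 measured 3.92, 0.503, 1.21, 3.16 and 3.31 CPM and 0.808, 0.434 and 1.53 CPM and did not pass the filter. Cyclin E1 and E2F1 thus had smaller estimates than Cdc6, a difference that was not tested.

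The remaining calls in aggregates were Pola1, Pola2 and Pole of the polymerases, Rrm1, Uhrf1, and Clspn, Tipin and Dtl of fork protection. Dtl, a substrate receptor that directs Cdt1 to degradation, had the smallest adjusted p (log2 fold change -3.30 ± 0.751, adjusted p = 0.0183). At the other end, Rpa2, a subunit of the single-strand binding protein, was the 1 member with a positive estimate (log2 fold change 0.03 ± 0.566, adjusted p = 0.978), with 5.03, 20.1, 44.4, 19.3 and 17.5 CPM in dediHeps and 25.9, 14.3 and 26 CPM in aggregates. Clamp loader subunits Rfc2, Rfc3 and Rfc4 had log2 fold changes of -0.23, -0.45 and -0.11. Mcm10 measured 3.36, 6.53, 31.1, 13.8 and 9.47 CPM in dediHeps and 4.85, 2.61 and 7.64 CPM in aggregates, and so did not return to the level of FH (log2 fold change -5.96 ± 0.519, adjusted p = 2.28e-05). Tk1 measured 4.47, 11.6, 59.5, 13.4 and 24.1 CPM in dediHeps and 0.808, 4.34 and 10.7 CPM in aggregates and was lower in aggregates than in FH (log2 fold change -2.22 ± 0.657, adjusted p = 0.0282). E2f8 measured 9.51, 2.51, 22.7, 1.97 and 1.42 CPM in dediHeps and 0 counts in all 3 aggregates.

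Aggregates against FH had 20 members above the count filter, of which Mcm6 and Chaf1b were higher and Mcm10 and Tk1 lower, 2 each, against 6.78% and 9.78% of all genes. With all 49 libraries in the fit, 4 were called each way, and without FH replicate 2 it was 1 each way. Outside the 46, 10 of 50 tested replication genes fell from dediHeps to aggregates and 0 rose, against 5.11% and 4.39% of all genes. Fbxo5, an inhibitor of the anaphase-promoting complex, went from 12.0 to 0.439 CPM, Dbf4, the activating subunit of the Cdc7 kinase, from 37.5 to 3.59 CPM, and Dck, a deoxynucleoside kinase, from 51.5 to 10.1 CPM.

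By group mean, the 4 kinds of organoid had the highest sums, with libraries that overlap those of other groups. Summed levels were 2834, 2881 and 2598 CPM in dediHep-derived SOs, 3312, 4100 and 3077 CPM in FIPC-derived SOs, 2702, 2562 and 3818 CPM in dediHep-derived BOs and 3116, 2922, 2980 and 2798 CPM in ISC-derived BOs. Over the 16 groups the highest mean was in FIPC-derived SOs for 19 members, in dediHep-derived BOs for 11, in dediHep-derived SOs for 6 and in ISC-derived BOs for 3. Between dediHeps and their SOs, 0 of 45 tested members were called (background 4.12% higher and 4.65% lower of all genes), with 0 in DESeq2 and 7 at an unadjusted p under 0.05. Without dediHep replicate 3, 4 members were higher. The cultures moved in different directions. The sum went from 1135 to 2834 CPM in the first, from 1526 to 2598 CPM in another, and from 3792 down to 2881 CPM in the culture whose dediHeps stood apart.

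Few members separated dediHep-derived from FIPC-derived SOs at the full fold. Tipin, which steadies the fork with Timeless, was the 1 of 45 called lower (log2 fold change -2.30 ± 0.503, adjusted p = 0.013), against 3.99% of all genes, and 0 were higher, against 4.92%. It measured 9.0, 11.9 and 25.4 CPM in dediHep-derived and 37, 102 and 81.2 CPM in FIPC-derived SOs, and its call was lost without dediHep-SO replicate 1 or FIPC-SO replicate 2. At any fold, 12 of 45 were lower at an adjusted p under 0.1 and 0 higher, against 10.3% of all genes lower. The number called was 4 without dediHep-SO replicate 3 and 2 without FIPC-SO replicate 1. Among the 12 were Blm, a helicase of recombination (log2 fold change -1.84 ± 0.371, adjusted p = 0.00879), Pola1, Prim1, Rrm1, Rrm2, Mcm10 and Gmnn. Stellate cell and fibroblast markers were at 0 to 0.964 CPM in the dediHep-derived SOs and at 10.5, 3.15 and 365 CPM in FIPC-SO replicates 1 to 3; their part was not tested.

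Ring subunits in the 4 kinds of organoid were as follows. Mcm2 measured 78.4, 84.8 and 53.7 CPM in dediHep-derived SOs, 67.8, 91.5 and 59.1 in FIPC-derived SOs, 53.4, 38.8 and 84.4 in dediHep-derived BOs and 72.5, 86.1, 55.1 and 53.3 in ISC-derived BOs. Mcm3 measured 36.6, 43.7 and 56.9 CPM, 47.5, 76.7 and 49.4 CPM, 38.8, 34 and 72.7 CPM and 50.8, 45.1, 48.7 and 40.6 CPM in the same order. For both the 4 kinds overlap. Mcm4 measured 26.4, 25.8 and 33.3 CPM in dediHep-derived SOs, 33.1, 61.3 and 45.6 in FIPC-derived SOs, 49, 34 and 66.4 in dediHep-derived BOs and 26.5, 10.9, 34.3 and 44.6 in ISC-derived BOs. Mcm5 measured 156, 90.8 and 52.3 CPM, 96.6, 58.5 and 48.5 CPM, 45.1, 50.3 and 105 CPM and 64.4, 128, 78.4 and 50.7 CPM. The Mcm5 ranges overlap, and replicate 1 of the dediHep-derived SOs was the highest. Mcm6 measured 72.9, 80.9 and 108 CPM in dediHep-derived SOs, 84.5, 178 and 134 in FIPC-derived SOs, 172, 128 and 162 in dediHep-derived BOs and 170.4, 69.8, 137 and 142 in ISC-derived BOs. Mcm7 measured 434, 400.5 and 162 CPM, 332, 179.8 and 137 CPM, 112, 100.5 and 211 CPM and 213, 429, 199 and 130.2 CPM. ISC-BO replicate 2 and dediHep-SO replicate 1 were the highest for Mcm7, and the ranges overlap. Mcm10 measured 16.7, 14.4 and 13.9 CPM in dediHep-derived SOs, 31.2, 44.5 and 35.6 in FIPC-derived SOs, 25.2, 28.7 and 48.9 in dediHep-derived BOs and 42.2, 37.2, 30.9 and 34.5 in ISC-derived BOs, below all 3 FH libraries throughout.

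Cdt1 measured 161, 185 and 151 CPM in dediHep-derived SOs, 117, 154 and 167 in FIPC-derived SOs, 148, 135 and 226 in dediHep-derived BOs and 199, 138, 178 and 159.5 in ISC-derived BOs. Gmnn measured 58.2, 59 and 49 CPM, 100.5, 125 and 81.2 CPM, 68.4, 79.8 and 119 CPM and 95.7, 69.4, 91.9 and 112 CPM. Each Gmnn value in dediHep-derived SOs was below each of the other organoids. Pcna measured 153, 194 and 298 CPM in dediHep-derived SOs, 217, 330.4 and 209.9 in FIPC-derived SOs, 418, 309.6 and 438 in dediHep-derived BOs and 302, 193, 269 and 302 in ISC-derived BOs. Tyms measured 46.3, 32.8 and 51.8 CPM, 59.6, 55.7 and 58.1 CPM, 55.3, 43.7 and 63.1 CPM and 75.7, 77.3, 73.7 and 62.9 CPM. The 2 highest Pcna libraries were dediHep-derived BOs, and the lowest was a dediHep-derived SO. Rrm2 measured 113, 113 and 225 CPM in dediHep-derived SOs, 182, 496 and 376 in FIPC-derived SOs, 190.2, 184 and 287 in dediHep-derived BOs and 183, 109, 177 and 239 in ISC-derived BOs. Tk1 measured 54.6, 59.5 and 25.4 CPM, 50.6, 47.3 and 28.9 CPM, 19.4, 14.6 and 31.7 CPM and 57.9, 79.4, 35.6 and 26.7 CPM. Rrm2 stayed below the level of the 7-day DMSO cultures in every organoid library.

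Ccne1 measured 14.8, 19.9 and 19.9 CPM in dediHep-derived SOs, 20.6, 48.4 and 13.2 in FIPC-derived SOs, 11.2, 8.82 and 16.7 in dediHep-derived BOs and 10.3, 32.6, 7.2 and 12.7 in ISC-derived BOs. None of these libraries reached the 52.8 CPM of the lowest library at day 2. Ccne2 measured 1.28, 0.992 and 2.78 CPM, 3.51, 9.81 and 1.93 CPM, 5.34, 3.53 and 2.09 CPM and 3.25, 1.25, 3.39 and 3.5 CPM. E2f1 measured 64.9, 91.8 and 31.9 CPM in dediHep-derived SOs, 71.7, 57.1 and 45.3 in FIPC-derived SOs, 26.7, 26.5 and 36.8 in dediHep-derived BOs and 48.7, 59.4, 55.5 and 32.3 in ISC-derived BOs. E2f8 measured 1.93, 4.47 and 11.6 CPM, 8.57, 30.5 and 18.9 CPM, 37.4, 17.6 and 27.6 CPM and 18.4, 8.36, 13.1 and 28 CPM. Between dediHep-derived BOs and SOs, E2f1 had a negative estimate (log2 fold change -1.03 ± 0.392, adjusted p = 0.0731) with overlapping libraries, and every E2f8 value in BOs was above every one in SOs.

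Of 45 members tested between dediHep-derived BOs and SOs, 2 were higher in BOs and 0 lower, against 5.6% and 5.68% of all genes. They were E2f8 (log2 fold change 2.26 ± 0.582, adjusted p = 0.0185) and Cdca7 (log2 fold change 2.60 ± 0.538, adjusted p = 0.00656). Cdca7 measured 2.57, 6.45 and 16.2 CPM in SOs and 52.4, 48.5 and 46.4 CPM in BOs, without overlap, and 41.1, 18.8, 56.4 and 44.1 CPM in ISC-derived BOs. Leaving out dediHep-SO replicate 1 or dediHep-BO replicate 1 left 1 of the 2 calls. Against ISC-derived BOs, dediHep-derived BOs had 0 of 45 members called (background 1.34% higher and 1.71% lower), 0 in DESeq2, and 8 at an unadjusted p under 0.05. Pola2, Dscc1 and Fen1 passed the p threshold at log2 fold changes of 1.34, 1.40 and 1.48. Among replication genes outside the 46, 0 of 58 were called there.

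Between CLiPs and dediHeps few members passed the thresholds, most estimates were negative, and the number called depended on single libraries. The sum was 660.3, 965 and 1046 CPM, each below the lowest dediHep library (1135 CPM). Of 40 members tested, 37 had negative estimates and 2 were called lower, against 1.39% of all genes, and 0 higher, against 1.65%. The 2 were Cdt1 (log2 fold change -2.62 ± 0.619, adjusted p = 0.0567), at 10.8, 26.5 and 10.4 CPM, and Uhrf1 (log2 fold change -2.65 ± 0.712, adjusted p = 0.0877), at 1.48, 4.41 and 2.26 CPM. The number was 7 in DESeq2, 11 with all 49 libraries in the fit and 0 without CLiP replicate 1, CLiP replicate 3 or dediHep replicate 2. Leaving out dediHep replicate 3 or 5 left 1, leaving out dediHep replicate 1 gave 6, and leaving out CLiP replicate 2 gave 5. E2f1, at 48.3, 46.6 and 58.8 CPM, was one of the 3 with a positive estimate. The median log2 fold change of the 40 members was -1.29. Mitosis genes summed to 118, 353 and 763 CPM in CLiPs and 482 to 2824 CPM in dediHeps, and 0 of 11 were called.

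The other members given by library were spread widely among the CLiPs. Mcm2 measured 14.3, 18.9 and 18.1 CPM and Mcm3 8.88, 13.4 and 6.33 CPM. Mcm4 measured 3.45, 21.6 and 3.17 CPM and Mcm5 5.42, 8.2 and 25.3 CPM. Mcm6 measured 16.3, 52.8 and 25.8 CPM and Mcm7 35, 46.6 and 235 CPM. Replicate 2 was the highest for Mcm4 and Mcm6, and replicate 3 for Mcm5 and Mcm7. Pcna measured 75.5, 138 and 55.2 CPM, Gmnn 9.86, 20.2 and 15.8 CPM and Tyms 10.8, 12.6 and 17.2 CPM. Rrm2 measured 17.8, 139 and 42.1 CPM and Tk1 0, 1.68 and 11.3 CPM. Ccne1 measured 6.41, 6.3 and 8.59 CPM, Ccne2 0.493, 1.89 and 1.36 CPM, Mcm10 1.97, 2.31 and 2.26 CPM and E2f8 0.493, 1.47 and 0.452 CPM. In every group from day 1 on, CLiPs included, each library was below the lowest FH library in Mcm10. Hepatocyte markers summed to 1466 to 7082 CPM and Kupffer cell markers to 63.5 to 137 CPM in these libraries, and their part was not tested.

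With verteporfin 0 of the tested members passed the thresholds. With 0.3 µM for 7 days the sum was 2647 and 2631 CPM, against 1894 and 2082 CPM with DMSO. Of 42 members tested, 38 had positive estimates with a median log2 fold change of 0.44, and 0 were called (background 0.24% higher and 0.0288% lower). The smallest adjusted p was 0.222 in this fit without a replicate block, 9 had an unadjusted p under 0.05, and DESeq2 called 0. Both verteporfin libraries exceeded both DMSO libraries for 20 of 42 members, against 18.8% of all genes tested. Cdt1 measured 43.2 and 43.9 CPM with verteporfin and 16.5 and 20.1 CPM with DMSO (log2 fold change 1.27 ± 0.319, adjusted p = 0.222). Pole, the leading-strand polymerase, measured 59.9 and 36.5 CPM and 21.7 and 15.7 CPM (log2 fold change 1.40 ± 0.373, adjusted p = 0.259). Without DMSO replicate 1 the number called was 1. Mitosis genes summed to 2254 and 1850 CPM with verteporfin and 1464 and 1457 CPM with DMSO, and 0 of 11 were called.

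Mcm2 measured 18 and 33.4 CPM with verteporfin and 23.7 and 13.4 CPM with DMSO, and Mcm3 32.9 and 30.3 and 32.3 and 20.1 CPM. Mcm4 measured 18.7 and 40.9 CPM and 23 and 45.9 CPM, and Mcm5 26.4 and 31.6 and 13.2 and 18.5 CPM. Mcm6 measured 138 and 152 CPM and 120.5 and 95.7 CPM, and Mcm7 78 and 108 and 61.2 and 47.5 CPM. The ring subunits Mcm5, Mcm6 and Mcm7 did not overlap between the treatments, and Mcm2, Mcm3 and Mcm4 gave a mixed order. Pcna measured 154 and 177 CPM and 133 and 158 CPM, Gmnn 59.3 and 65.6 and 30.9 and 44.8 CPM. Tyms measured 18 and 14.8 CPM and 16.5 and 16.2 CPM, Rrm2 702 and 774 and 512 and 684 CPM. Ccne1 measured 16.8 and 19.8 CPM and 16.5 and 22.4 CPM, Ccne2 5.15 and 3.71 and 1.98 and 9.51 CPM. E2f1 measured 126 and 71.2 CPM and 63.2 and 49.8 CPM, E2f8 1.29 and 12.4 and 6.58 and 11.2 CPM, Mcm10 17.4 and 16.7 and 11.8 and 7.27 CPM, Tk1 10.9 and 13.6 and 7.24 and 8.95 CPM. The DMSO cultures also lay above the untreated 7-day cultures in their sum (967 to 1366 CPM), which belong to another set of cultures.

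**Figure D5:**
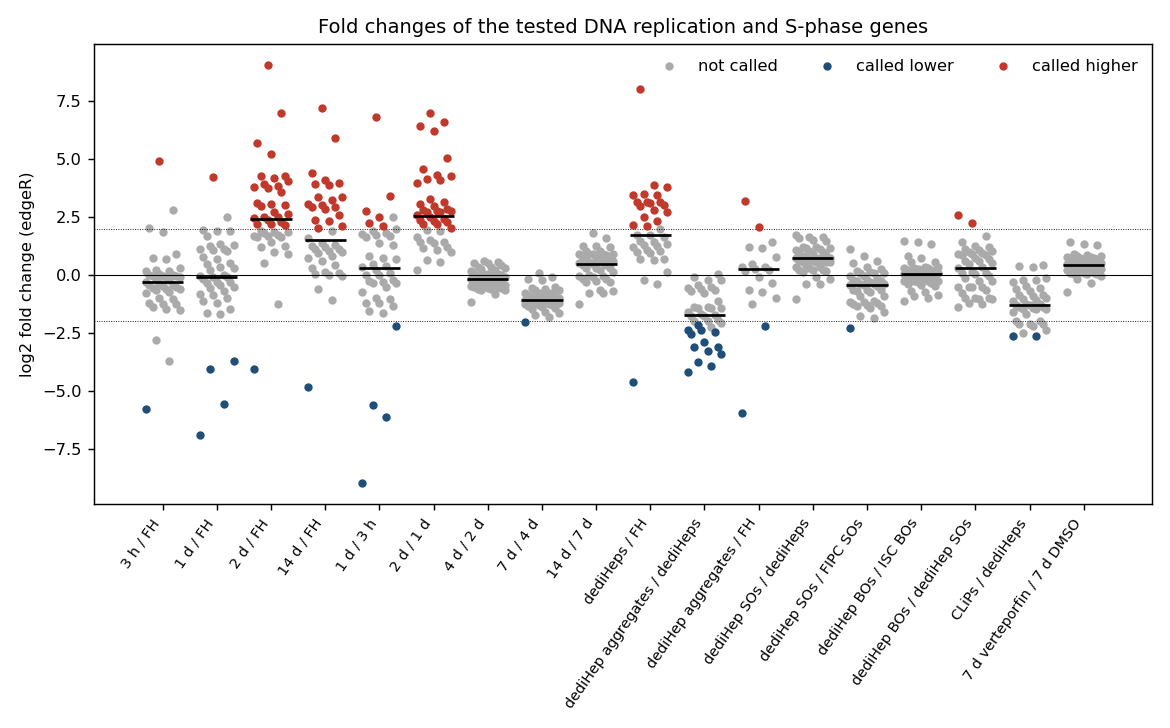
log2 fold changes (y axis, edgeR) of every tested member in 18 comparisons (x axis, case / control); each point is a gene, coloured where it was called, black bars are medians and dotted lines the fold threshold. The medians stand at 2.40 for 2 days against FH, 2.55 for 2 days against 1 day and -1.74 for aggregates against dediHeps, and near 0 for dediHep-derived BOs against ISC-derived BOs.

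Ordered by group mean on the TMM scale, the sum over the 46 genes was lowest in aggregates (694 CPM), day 1 (726), FH (846), 3 h (867) and CLiPs (890), where neighbours in this order overlap except day 1 and FH. On plain CPM the order of these 5 groups was another: 3 h (516), FH (539), aggregates (650.4), day 1 (689) and CLiPs (955). Day 7 (1168) and day 14 (1591) followed, without overlap between them. DediHeps (1943), 7-day DMSO cultures (1988), day 4 (2204), day 2 (2576), verteporfin (2639), dediHep-derived SOs (2771), ISC-derived BOs (2954), dediHep-derived BOs (3027) and FIPC-derived SOs (3496) formed the upper part. Of these, verteporfin stood above both DMSO libraries, and FIPC-derived SOs above all dediHep-derived SOs, while the other neighbours overlapped. Sums over a group of genes weigh the abundant members most, and Rrm2 alone made 25.7 to 778 CPM of them in dediHeps.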

How the data were processed

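The 49 libraries were made by the authors with CEL-seq2, and the deposited values are counts of molecular identifiers per Ensembl gene, not normalized; the submitters' processing notes name bcl2fastq 2.20, Bowtie2 2.3.1, HTSeq 0.6.0 and GRCm38, and the annotation release is not given in the sources used here. The largest count was 4096, and the largest of a member was 2573. Whether the number of identifiers limits such high counts was not tested. Each comparison was fitted in R 4.3.3 with edgeR 4.0.16 (TMM factors, filterByExpr with a minimum count of 10, quasi-likelihood F-test on 9544 to 12443 genes), in a fit of its own libraries or, for the time course, of its 21 libraries. P-values were adjusted by Benjamini-Hochberg over all genes tested, and calls required an adjusted p below 0.1 together with a log2 fold change beyond 2 in size, as in the study's methods. CPM values are divided by the TMM-scaled library total. Intervals and floors cover counting error only. On counts simulated with log2 fold changes of 3, the test recovered 95.85% of changed genes among 9498 for dediHeps against FH. It recovered 94.47% among 10985 for aggregates against dediHeps and 99.5% among 10157 for verteporfin against DMSO. False calls numbered 7, 4 and 3. These shares hold for log2 fold changes of 3 in size. Estimates of the members with verteporfin ran from -0.72 to 1.40, so the 99.5% does not cover changes of that size. Genes were changed only where the control mean in CPM plus 1 was over 10. Mcm2 and Mcm3, among other members, were below this level in FH, so the first share does not cover them. Of 54 replicate pairs, 0 were identical, and the chi-square per degree of freedom between them was 5.62 to 68.0. The members and gene lists were chosen with earlier results of these data known. Values in every library were given for the ring subunits, Pcna, Rrm2, Tyms, Ccne1, Ccne2, Cdt1, Gmnn, E2f1 and any member called against the majority, and the rest by range and count. Of other replication genes, the 3 called with the smallest p were eligible. The result for 1 of them is not reported here. Pairing was checked through the correlation of deviations from group means. It held by culture for aggregates and dediHeps (0.178 to 0.332, where the labels name the culture) and by number for days 4 and 7 (0.251 to 0.621). Pairs by number were also positive for days 2 and 4 (0.0533 to 0.408) and for days 1 and 2 (0.0250 to 0.197). Verteporfin and DMSO, with 2 libraries each, gave 0.338. The calls given for these comparisons come from fits without a block. Alternatives were DESeq2 1.42.0, RLE factors, no count filter, all libraries in a single fit, no fold threshold, the replicate block and each library left out.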

Additional observations from a re-analysis of the deposited data

Results flagged for a closer look

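A library was marked when its gap to the nearest of its group, divided by the range of the group, passed Dixon's critical value. Of 36 such tests in groups of 4 and 5 libraries, 5 were passed, and chance gives about 1 in 20. DediHep replicate 3 stood above the other 4 in 4 of them. Its summed level of the 46 genes was 3792 CPM against 1135 to 1827 CPM, Pcna was 330.9 CPM against 128.7 to 174.9 CPM, Mcm3 was 50.8 CPM against 14.0 to 21.3 CPM, and Mcm6 was 171.7 CPM against 43.1 to 64.8 CPM. ISC-BO replicate 2 had Ccne2 at 1.25 CPM against 3.25 to 3.50 CPM in the other 3.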

How the results depend on the processing

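Of 180 called values of single members, 0 changed direction under the alternatives run; 126 of 1142 values with a library left out lost the call. Without a fold threshold the numbers of members called were 4 for CLiPs against dediHeps, 32 for day 14 against FH, 1 for day 14 against day 7, 19 for day 1 against 3 h, 4 for 3 h against FH, 5 for day 7 against day 4, 3 for dediHep-derived against ISC-derived BOs, 20 for dediHep-derived BOs against SOs, 12 for dediHep-derived against FIPC-derived SOs, 4 for dediHep-derived SOs against dediHeps and 22 for aggregates against dediHeps. For day 1 against FH this gave 13 (7 higher and 6 lower), so that the majority turned. It also turned without FH replicate 1 (8 called) and without day-1 replicate 2 (5 called). With all 49 libraries in the fit the numbers were 11 for CLiPs, 1 for 3 h against FH, 0 for day 7 against day 4, 8 for aggregates against FH and 20 for aggregates against dediHeps. DESeq2 called 7 for CLiPs, and no count filter gave 0 for day 7 against day 4. With the replicate block, CLiPs against dediHeps and day 7 against day 4 had 0 called; for CLiPs the samples share only a number. The cause of these changes was not tested, apart from the looser rule itself.

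Leaving out 1 library at a time gave 0 to 6 for CLiPs against dediHeps, 20 to 22 for day 14 against FH, 0 to 3 for day 14 against day 7, 4 to 8 for day 1 against FH, 9 to 12 for day 1 against 3 h, 27 to 31 for day 2 against FH, 24 to 31 for day 2 against day 1, 1 to 3 for 3 h against FH, 25 to 31 for day 4 against FH, 0 for day 4 against day 2, 15 to 19 for day 7 against FH, 0 to 4 for day 7 against day 4, 0 to 1 for verteporfin, 14 to 20 for dediHeps against FH, 0 for dediHep-derived against ISC-derived BOs, 1 to 3 for BOs against SOs, 0 to 4 for dediHep-derived against FIPC-derived SOs, 0 to 4 for SOs against dediHeps, 2 to 4 for aggregates against FH and 6 to 16 for aggregates against dediHeps. On plain CPM the summed level was 539 in FH, 516 at 3 h, 4277 in FIPC-derived SOs, 2796 with verteporfin, 3172 in ISC-derived BOs and 2968 in dediHep-derived SOs.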
